A study of Mus musculus with 8 samples.

Results

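The genes described here are 34 markers of the unfolded protein response and the integrated stress response, found by symbol among the 24451 genes of the table. They were chosen by known function, with earlier results of these data known. They fall into 14 ER chaperones, 6 ER degradation genes, 6 sensors and factors, and 8 targets of the transcription factor ATF4. Bulk liver RNA was sequenced from 4 Brap LKO and 4 Brap F/F male mice on a C57BL/6 background, aged 18 wk and fasted for 6 h. All 8 mice carried the floxed Brap alleles, in which exons 2 and 3 are flanked by loxP sites. The Brap LKO mice also carried Albumin-Cre, which is active in hepatocytes. Whether the other cells of these livers keep Brap was not examined here. The Brap F/F mice, labelled wild type, carried no Cre, so an effect of Cre alone cannot be told apart from that of the deletion.

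Proteins that enter the secretory pathway fold in the endoplasmic reticulum (ER) with the help of chaperones, and those that fail are returned to the cytosol and degraded. When misfolded proteins accumulate, the sensors IRE1 (Ern1), PERK (Eif2ak3) and ATF6 raise chaperone and degradation genes through XBP1 and cleaved ATF6, while PERK slows translation and favors ATF4. ATF4 is also induced by amino acid shortage and other stresses, which together form the integrated stress response. Hepatocytes secrete most plasma proteins, and their ER is busy under ordinary conditions.

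Reads counted on genes numbered between 26280884 and 33313914 per liver. Values are normalized counts, that is, reads on a gene divided by the authors' size factor for that liver, and 1 read was worth between 0.85 and 1.14 of them. Brap itself had normalized counts of 3641 to 4203 in the Brap LKO livers and 3994 to 4410.2 in the Brap F/F livers, with a log2 fold change of -0.07 ± 0.07 (SE; limma adjusted p = 0.631). Counts over the whole gene are not limited to the deleted exons, so they do not check the labels. Hepatocyte markers were abundant in every liver, with a summed normalized count of 2545881 to 3458009 over 12 markers in the Brap LKO livers and 3145509 to 4600748 in the Brap F/F livers. Among marker lists of other cells, the median log2 fold change was 0.61 for macrophages, 0.83 for cholangiocytes and 0.71 for stellate cells and fibroblasts, with 1 called gene of 12, 8 and 10 tested (Gpnmb, Cftr and Pdgfrb). It was 0.35 for plasma cells and 0.17 for sinusoidal endothelium, with no called gene, beside 0.664% of all tested genes called higher. The hepatocyte median was -0.26, or 0.01 after quantile normalization, with no called gene. Relative to the median of all genes it was -0.25 with the authors' size factors and 0.03 after quantile normalization. When each liver had the same total it was -0.25, and with TMM factors -0.25.

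ER chaperones were the most abundant of the 4 classes. Per kilobase of exon, the level of Calr (calreticulin, a lectin chaperone for glycoproteins) was highest, at a normalized count of 8785 over the 8 livers. Herpud1, a membrane protein of the degradation machinery, followed at 7409 per kilobase, Hsp90b1 (the ER form of HSP90) at 5872 and Hspa5 (BiP, the ER form of HSP70 that holds the sensors inactive) at 4485. Among the regulators, Xbp1 stood at 1736, Atf4 at 977 and Atf6 at 395 per kilobase, while Ern1 stood at 292 and Eif2ak3 at 101. ATF4 targets were the least abundant class, from 133 per kilobase for Sesn2 down to 1.02 for Phgdh. The livers thus held high levels of chaperone RNA beside low levels of the stress effectors Ddit3 (CHOP, 60.9 per kilobase), Chac1 (74.6) and Atf3 (11.1).

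**Figure D1:**
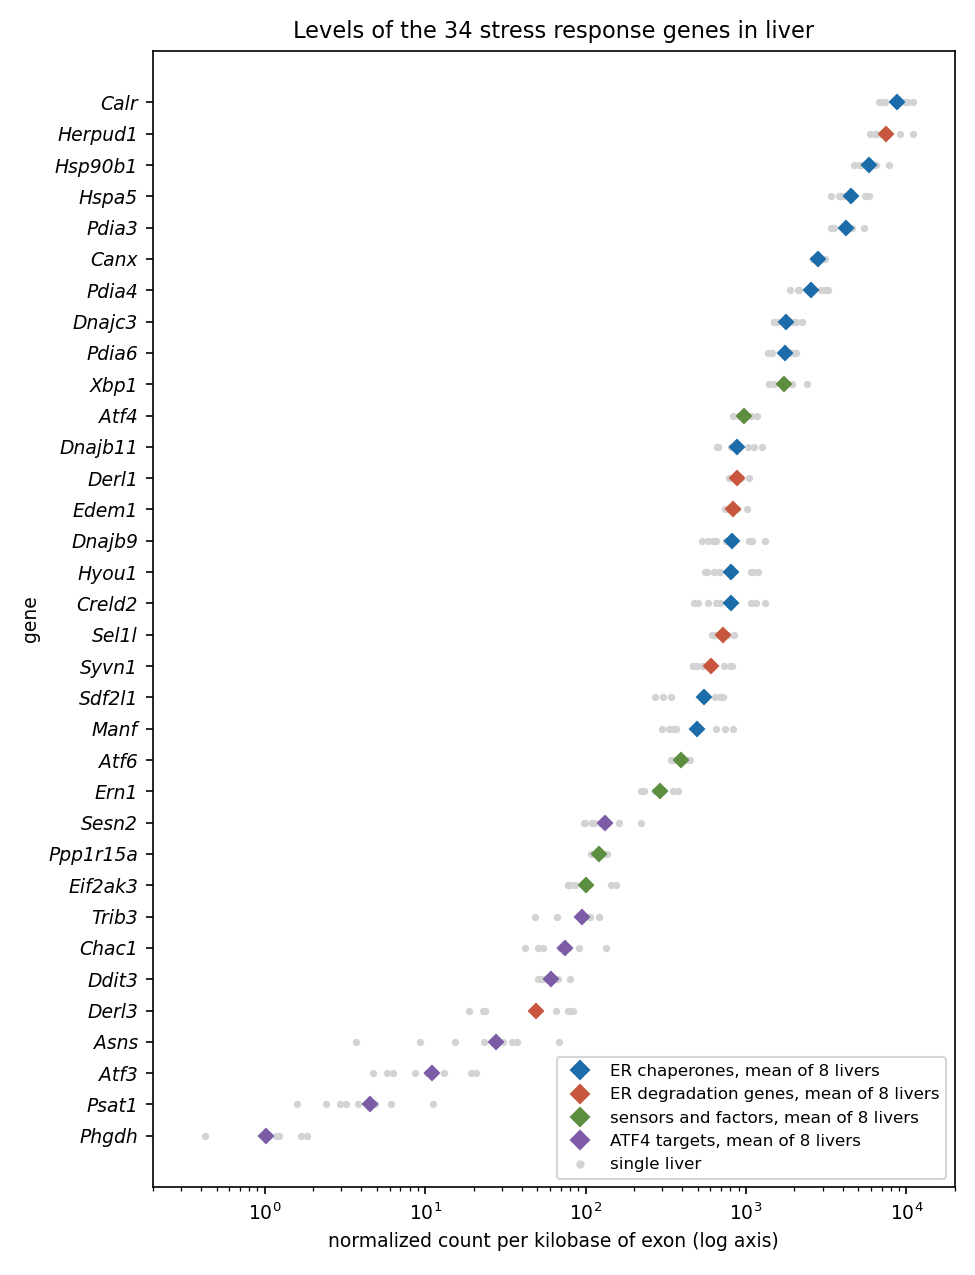
Normalized count per kilobase of exon (horizontal, log axis) for each of the 34 genes (vertical, ordered by level); diamonds give the mean of the 8 livers and grey points the single livers, and the 2 livers in which Phgdh is at 0 are off the axis. Calr, Herpud1 and Hsp90b1 lie highest, at 8785, 7409 and 5872, and Atf3, Psat1 and Phgdh lie lowest, at 11.1, 4.53 and 1.02.

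The first question was whether loss of Brap in hepatocytes went with a stress response. For this, limma, a moderated linear model, was run on log2(normalized count + 1) for the 15352 genes whose mean reached 5, with adjustment of the p-values across that whole set. Of the 34 genes, 33 passed this filter, and all 33 through both groups. None passed an adjusted p of 0.05, against 0.664% of all tested genes called higher and 0.104% called lower in the Brap LKO livers. At an unadjusted p under 0.05 there were 3 of 33 genes (9.09%), against 15.8% of all tested genes. No gene had groups that did not overlap, against 9.86% of all tested genes. The smallest adjusted p was 0.205, for Sel1l. Tests on the recovered reads also called none, with smallest adjusted p-values of 0.219 in edgeR and 0.106 in DESeq2, and with 3 and 5 genes at an unadjusted p under 0.05.

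The 95% confidence intervals say how large a difference could have been missed. For 26 of the 33 genes the interval lay within a 2-fold difference in either direction, and for 16 within a 1.5-fold difference. Canx (calnexin, the membrane partner of calreticulin) was bounded most tightly among the chaperones, with a log2 fold change of -0.03 and an interval from -0.21 to 0.16. The widest interval was that of Asns (asparagine synthetase), from -1.25 to 2.25. Estimates lay below 0 for 23 genes and above 0 for 10. After quantile normalization 18 lay below 0, and 10 did when each liver had the same total. Counted against the median of all tested genes instead of 0, 21 lay below it in the main fit. With the same total per liver 21 did, and with quantile normalization 18. The median log2 fold change was -0.09 over the 33 genes, beside -0.01 over all tested genes. With the same total per liver, which moved the median of all genes to 0.15, the median of the 33 became 0.06. Values given below for that setting are therefore to be read beside 0.15, not beside 0.

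**Figure D2:**
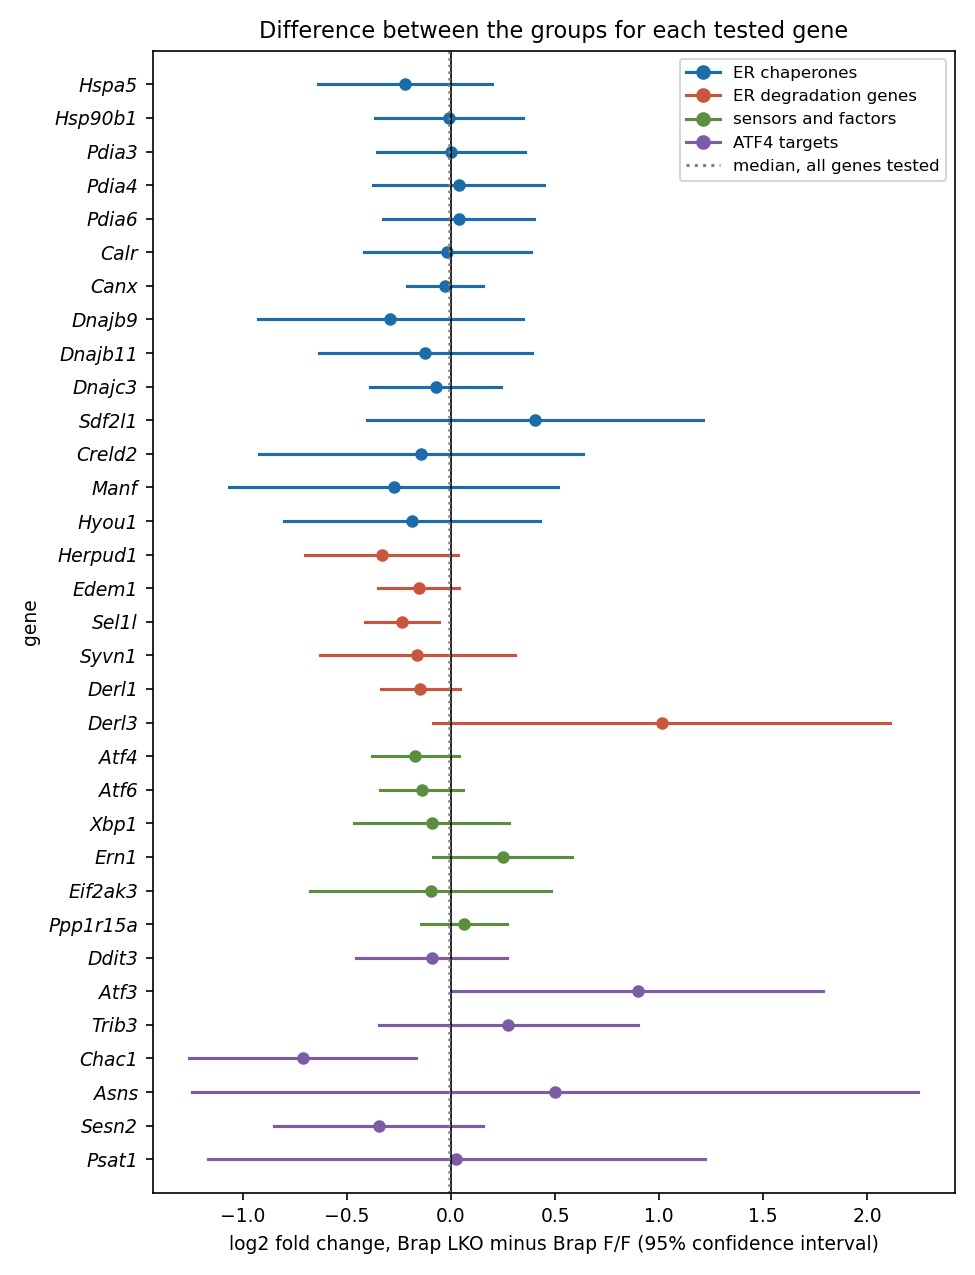
Log2 fold change (horizontal, Brap LKO minus Brap F/F) of the 33 tested genes (vertical), with points for the limma estimates, bars for 95% confidence intervals, colors for the 4 classes and a dotted line for the median of all tested genes. All but 3 intervals cross 0 (those of Sel1l, Chac1 and Atf3 do not before adjustment), and no adjusted p is under 0.05, while 13 estimates change sign with the same total per liver, 7 with quantile normalization and 2 with TMM. With the same total per liver the median of all tested genes itself moves to 0.15.

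Among the ER chaperones, none of the 14 genes passed the threshold. Their median log2 fold change was -0.05, which became 0.06 under quantile normalization or 0.11 when livers had the same total. Relative to the median of all genes, these values were -0.04, 0.08 and -0.04. The spread between livers of the same genotype was larger than any difference between genotypes. Calr (chr8:84841850-84846934, mm10) was at 26234, 26133, 19355 and 28400.2 normalized counts in Brap LKO replicates 1 to 4, and 31522, 20228, 21163 and 29361 in Brap F/F replicates 1 to 4. The highest and the lowest liver were Brap F/F replicate 1 and Brap LKO replicate 3, and the groups overlapped almost fully. Its log2 fold change was -0.02 ± 0.18 (SE; adjusted p = 0.969, exact permutation p = 0.943), with the sign turned under quantile normalization and under the same total per liver.

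Hsp90b1 (chr10:86690209-86705509) showed 23648, 23018, 20865 and 26112 in the Brap LKO livers and 31276, 18954, 20441 and 25096 in the Brap F/F livers. Both the highest and the lowest liver were Brap F/F livers, replicates 1 and 2. The log2 fold change was -0.01 ± 0.16 (SE; adjusted p = 0.982, exact permutation p = 1). Hspa5 (chr2:34771970-34777547) is the usual readout of ER stress. It stood at 16322, 16021, 14399 and 23349.8 in the Brap LKO livers and at 23509, 17134, 16222 and 24768 in the Brap F/F livers. Brap LKO replicate 4 and Brap F/F replicates 1 and 4 lay near one another and well above the other 5 livers. The mean was 17523 ± 3975 (SD, n = 4) in the Brap LKO group against 20408 ± 4354 (SD, n = 4) in the Brap F/F group, a log2 fold change of -0.22 ± 0.19 (SE; limma adjusted p = 0.588, exact permutation p = 0.2). That estimate became -0.06 under both quantile normalization and the same total per liver, beside -0.02 and 0.15 for the median of all genes.

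The largest estimates among the chaperones were those of Sdf2l1 and Dnajb9. Sdf2l1 (chr16:17130138-17132383), a cofactor of BiP that is strongly induced in ER stress, had normalized counts of 776, 758, 377 and 778 in the Brap LKO livers and 706, 299, 334 and 798 in the Brap F/F livers. Brap LKO replicates 1, 2 and 4 and Brap F/F replicates 1 and 4 lay well above the remaining livers. Its log2 fold change was 0.40 ± 0.36 (SE; adjusted p = 0.608, exact permutation p = 0.257). Dnajb9 (chr12:44205559-44210326; ERdj4, a BiP co-chaperone that keeps IRE1 inactive) had 1356, 1473, 1586 and 3324 in the Brap LKO livers and 2677, 1915, 1661 and 2777 in the Brap F/F livers. Brap LKO replicate 4 was the highest of all 8 livers, while the other Brap LKO livers were the lowest. This gave a log2 fold change of -0.29 ± 0.28 (SE; adjusted p = 0.638, exact permutation p = 0.4).

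The other 9 chaperones had log2 fold changes between -0.28 for Manf and 0.04 for Pdia4. They were the disulfide isomerases Pdia3, Pdia4 and Pdia6, calnexin, the BiP co-chaperones Dnajb11 and Dnajc3, Creld2, the secreted factor Manf, and Hyou1, an exchange factor for BiP. Manf was among those that varied most, with 1292, 1277, 1056 and 2598 in the Brap LKO livers and 2299.7, 1236, 1167 and 2929 in the Brap F/F livers. Again Brap LKO replicate 4 stood with Brap F/F replicates 1 and 4. The highest liver exceeded the lowest 2.77-fold for Manf, 2.76-fold for Creld2, 2.13-fold for Hyou1 and 1.18-fold for Canx.

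**Figure D3:**
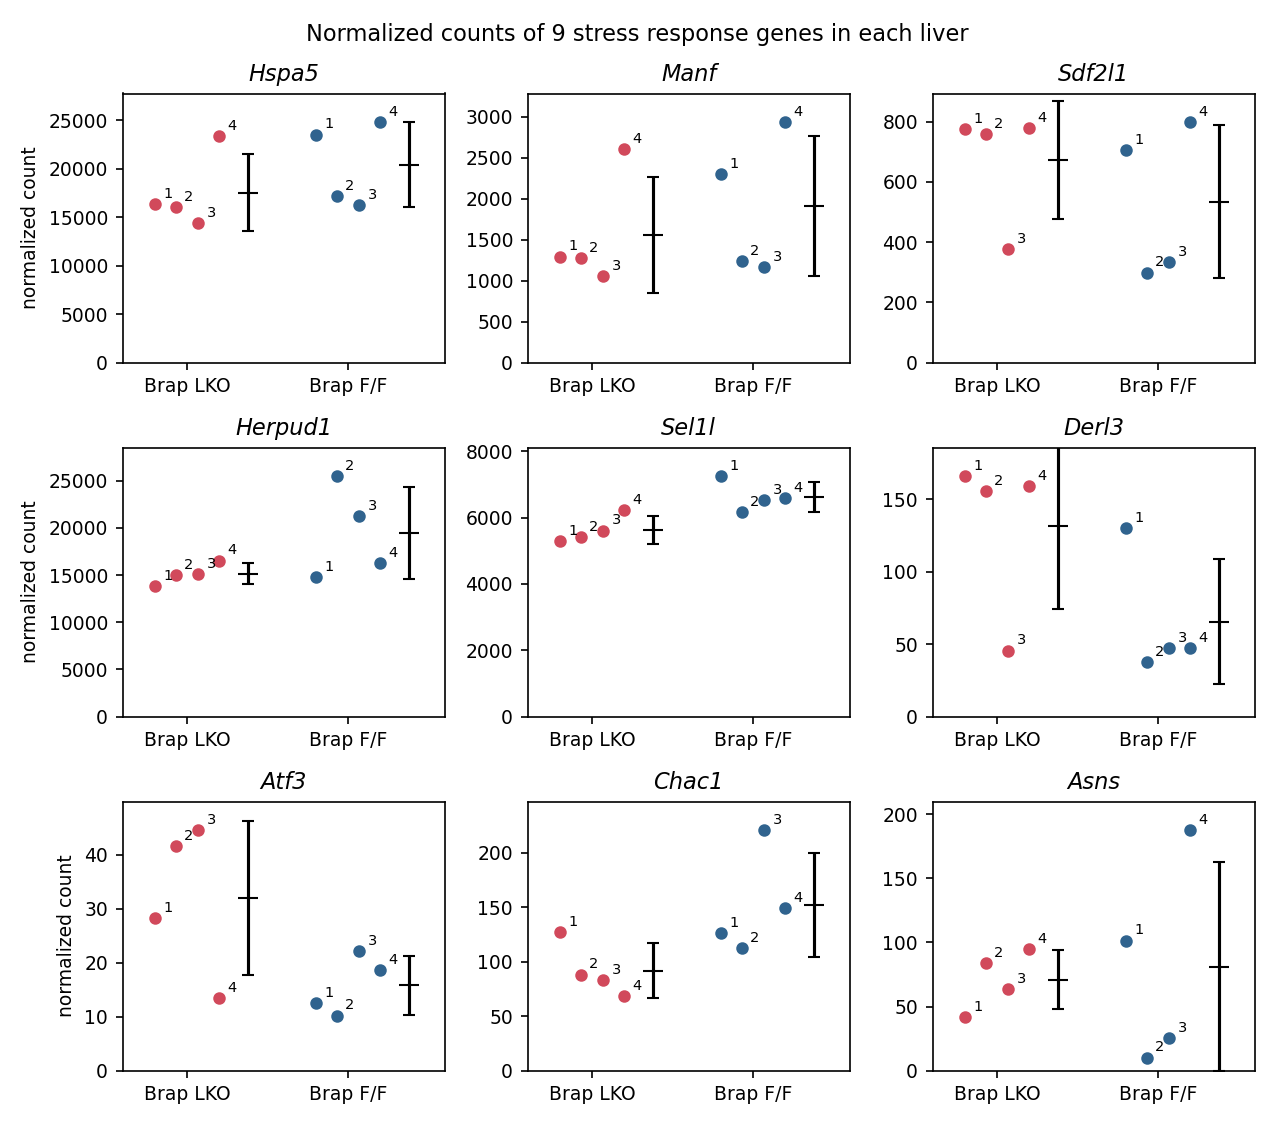
Normalized counts (vertical, linear from 0) of Hspa5, Manf, Sdf2l1, Herpud1, Sel1l, Derl3, Atf3, Chac1 and Asns in each liver, with the replicate number beside each point and the mean ± SD (n = 4) as black bars. For Hspa5 and Manf, Brap LKO replicate 4 and Brap F/F replicates 1 and 4 lie above the other livers, for Herpud1 Brap F/F replicates 2 and 3 do, and in all 9 panels the groups overlap.

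The order of the livers was shared across the chaperones. In 12 of the 14, the 3 highest livers were Brap LKO replicate 4, Brap F/F replicate 1 and Brap F/F replicate 4. The exceptions were Pdia6, in which Brap LKO replicate 2 ranked above Brap LKO replicate 4, and Sdf2l1. Brap LKO replicate 3 was among the 3 lowest livers for all 14 chaperones, and Brap F/F replicates 2 and 3 for 12 and 13. Of all tested genes, 8.21% had the same 3 livers highest. This order was noticed in the data and has no test.

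As a summary, each chaperone's log2(normalized count + 1) was set against its own mean over the 8 livers, and these deviations were averaged over the 14 genes within each liver. It was -0.06, -0.05, -0.36 and 0.34 in Brap LKO replicates 1 to 4, and 0.41, -0.32, -0.32 and 0.35 in Brap F/F replicates 1 to 4. Each genotype thus held livers near both ends of the range. The animal numbers in the labels form a lower series (Brap LKO replicates 1 to 3 and Brap F/F replicate 1) and a higher series (the other 4 mice), and both series held livers with high and with low values. The livers with high values had 26735149, 26280884 and 31455553 reads, of which the first 2 are the lowest of all, beside 28639884 to 33313914 in the other 5, and the part of depth in this order was not tested. The same mean over the hepatocyte markers was -0.27 in Brap LKO replicate 4, -0.08 in Brap F/F replicate 1 and near 0 in Brap F/F replicate 4, and it was highest in Brap F/F replicates 2 (0.38) and 3 (0.20). The part of hepatocyte content or of any other property of the tissue in this order was not tested. In bulk tissue, a different share of cells and a different level per cell cannot be told apart.

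**Figure D4:**
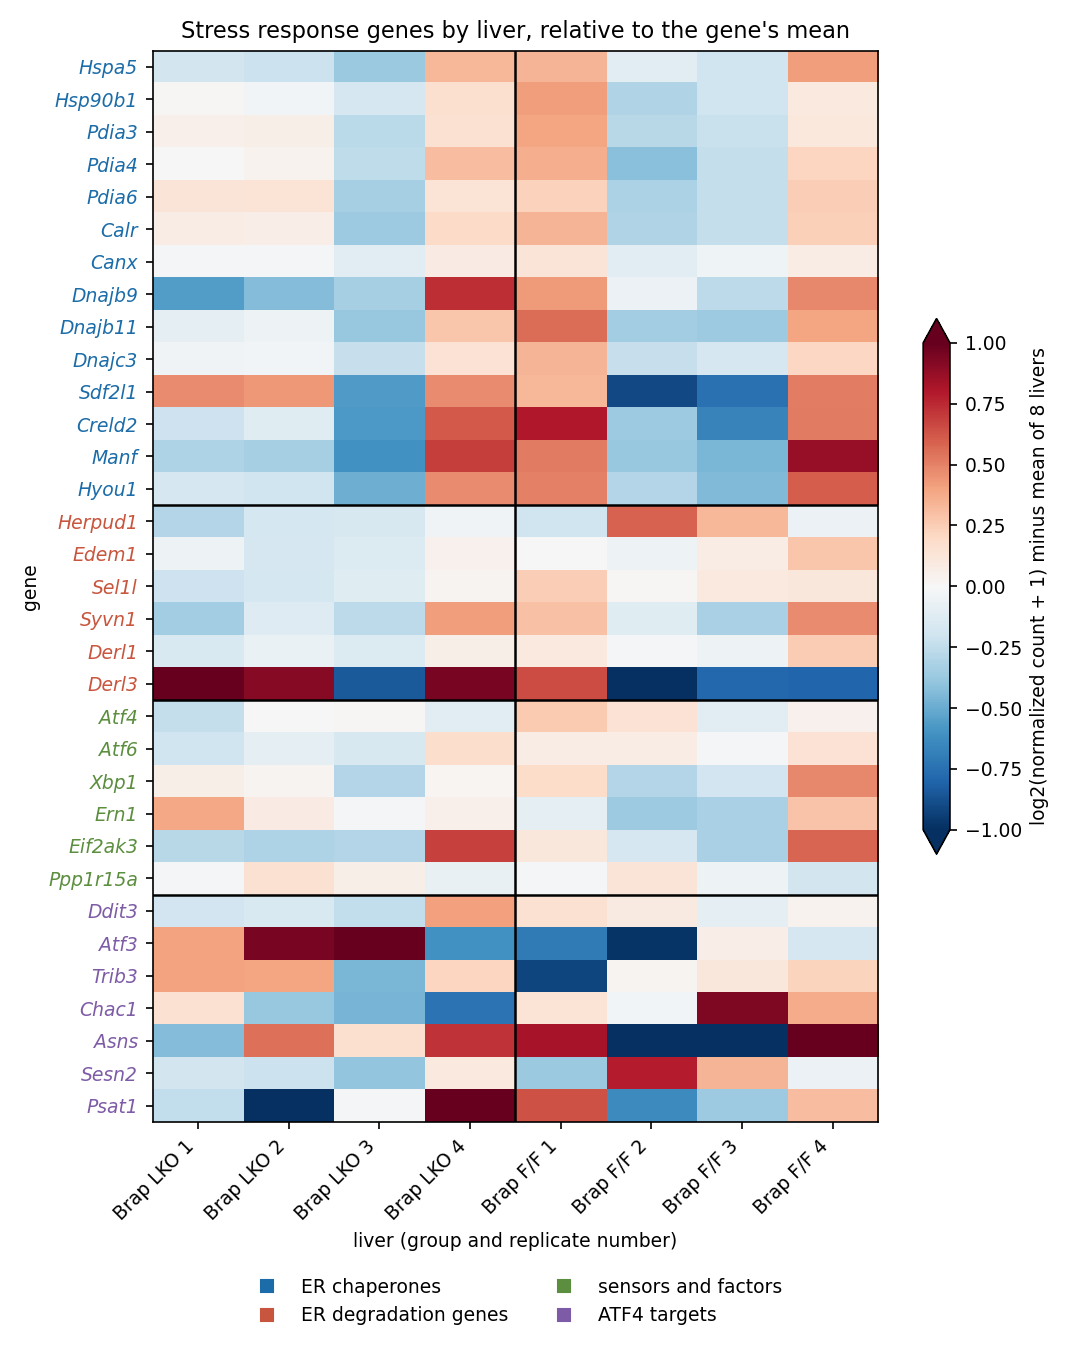
Deviation of log2(normalized count + 1) from the gene's mean over the 8 livers (color, with values beyond 1 in either direction drawn at the end of the scale) for the 33 tested genes (rows, in 4 classes) in each liver (columns, Brap LKO left and Brap F/F right of the line). In the chaperone block the columns of Brap LKO 4, Brap F/F 1 and Brap F/F 4 are red and those of Brap LKO 3, Brap F/F 2 and Brap F/F 3 are blue, whereas Herpud1 and Sesn2 are highest in Brap F/F 2.

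Promoters of many chaperones hold a known control element. The ER stress element, which binds ATF6 together with NF-Y, was searched as CCAAT and CCACG separated by 9 bases, on both strands, in the 250 bases before each RefSeq gene start (GRCm38.p6). It was present for 7 of the 12 chaperones that had a promoter window (58.3%), for Syvn1 and Derl3 among 5 ER degradation genes, and for none of the sensors and factors or the ATF4 targets. Among all 27025 genes with a window, 35 held it (0.13%). The matches are shown because the element is frequent among the chaperones and rare elsewhere, though Pdia3, Pdia4, Dnajb9, Dnajb11 and Sdf2l1 lack it in this window. Each is printed along the gene's own strand, with both boxes of the element in capitals (CCAAT and CCACG, or ATTGG and CGTGG where the element lies on the other strand).
Hspa5 (chr2:34772020-34772048, plus strand): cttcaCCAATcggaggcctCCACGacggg
Hsp90b1 (chr10:86705633-86705661, minus strand): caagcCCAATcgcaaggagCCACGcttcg
Hsp90b1 (chr10:86705528-86705556, minus strand): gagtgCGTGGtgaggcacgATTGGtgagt
Pdia6 (chr12:17266486-17266514, plus strand): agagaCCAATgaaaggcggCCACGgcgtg
Calr (chr8:84847070-84847098, minus strand): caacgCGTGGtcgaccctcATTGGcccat
Canx (chr11:50325795-50325823, minus strand): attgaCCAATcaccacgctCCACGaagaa
Dnajc3 (chr14:118937822-118937850, plus strand): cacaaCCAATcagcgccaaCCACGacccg
Creld2 (chr15:88819515-88819543, plus strand): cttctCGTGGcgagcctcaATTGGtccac
Syvn1 (chr19:6046527-6046555, plus strand): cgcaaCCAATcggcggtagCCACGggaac
Derl3 (chr10:75893237-75893265, plus strand): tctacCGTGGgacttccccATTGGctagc

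The 9 genes with the element did not follow 1 pattern in size. Hspa5, Hsp90b1, Calr, Canx, Dnajc3, Creld2 and Syvn1 had the 3 highest livers named above, and Pdia6 and Derl3 did not. The highest liver exceeded the lowest 1.18-fold for Canx and 4.41-fold for Derl3. Of the 26 other genes with the element, 10 were tested, and 4 of them (Acnat2, Alg12, Ero1lb and Pan2) had the same 3 livers highest. The UPR element, searched as TGACGTGG, was present in no window of the 30 genes and in 0.603% of all genes. Its last bases, CGTGG, are the complement of the CCACG box. A match describes the letters in this window and does not show that a factor binds there, and elements that differ by a base or lie farther off would be missed.

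ER degradation genes recognize misfolded proteins and send them back to the cytosol. None of the 6 passed the threshold, and the median log2 fold change was -0.16, which became -0.08 with quantile normalization and -0.0011 once every liver had the same total. Relative to the median of all genes, the last 2 values were -0.06 and -0.15. Sel1l (chr12:91806043-91849157), the adaptor of the HRD1 ubiquitin ligase, came closest to the threshold and was singled out for that after its values were seen. It had 5284, 5403, 5606 and 6226 in the Brap LKO livers and 7241, 6159, 6522 and 6587 in the Brap F/F livers. Only Brap LKO replicate 4 reached into the Brap F/F range, just above Brap F/F replicate 2. The mean was 5629.6 ± 419 (SD, n = 4) in the Brap LKO group against 6627 ± 451 (SD, n = 4) in the Brap F/F group. The estimate was a log2 fold change of -0.24 ± 0.08 (SE), with an unadjusted p of 0.0143, an adjusted p of 0.205 in limma and an exact permutation p of 0.0571. Under quantile normalization and the same total per liver the medians of all genes were -0.02 and 0.15. The Sel1l estimate became -0.11 and -0.08 in these settings (limma adjusted p of 0.573 and 0.643). With 1 surrogate variable from sva as a covariate, added after the data were seen, it was -0.26 with an adjusted p of 0.0472. That fit called 490 genes higher and 245 lower over all tested genes, against 102 and 16 without the variable. The variable was estimated from all tested genes, and its sign, which is arbitrary, was set to follow Hspa5. With that sign it was highest in Brap LKO replicate 4 (0.385) and Brap F/F replicates 1 (0.328) and 4 (0.414). These were the livers that were highest for the chaperones. At the other end lay Brap F/F replicates 2 (-0.51) and 3 (-0.553).

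Herpud1 (chr8:94386438-94395377) did not share the order of the chaperones. Its normalized counts were 13805, 15025, 15133 and 16519.9 in the Brap LKO livers, and 14788, 25463, 21283 and 16270.3 in the Brap F/F livers. Brap F/F replicates 2 and 3, among the lowest livers for the chaperones, were the highest for Herpud1, and the other 6 livers lay close together. Its log2 fold change was -0.33 ± 0.16 (SE; limma adjusted p = 0.36, exact permutation p = 0.2). With the animal series as a covariate it was -0.17 (limma adjusted p = 0.705). Leaving out 1 liver gave -0.45 (Brap F/F replicate 1) to -0.19 (Brap F/F replicate 2). The window of Herpud1 held no ER stress element but held the C/EBP-ATF element, which binds dimers of ATF4 and C/EBP proteins.

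Edem1 (chr6:108828641-108859356), a lectin that takes glycoproteins out of the folding cycle, had 5172, 4775, 4866 and 5501 in the Brap LKO livers and 5366, 5178, 5636 and 6503 in the Brap F/F livers. Brap LKO livers were mostly the lower ones, with overlap. The log2 fold change was -0.16 ± 0.09 (SE; adjusted p = 0.412, exact permutation p = 0.114), which became 0.0018 when livers had the same total. Derl1 (chr15:57869502-57892448), part of the channel through which proteins leave the ER, had 2616, 2772, 2641 and 3028 in the Brap LKO livers and 3115, 2884, 2804 and 3473 in the Brap F/F livers. Brap LKO replicate 4 lay above Brap F/F replicates 2 and 3, and the other Brap LKO livers lay below the Brap F/F range. Its log2 fold change was -0.15 ± 0.08 (SE; adjusted p = 0.421, exact permutation p = 0.114), with 0.01 under the same total per liver.

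Derl3 (chr10:75893413-75895941), the inducible member of the Derlin family, had the largest estimate of all 33 genes and one of the widest spreads. It had 166, 155.5, 45.5 and 159 in the Brap LKO livers and 130.0, 37.6, 47.3 and 47.1 in the Brap F/F livers. Livers fell into a higher and a lower set, with Brap LKO replicate 3 among the low livers and Brap F/F replicate 1 among the high ones. This gave a log2 fold change of 1.01 ± 0.49 (SE; adjusted p = 0.352, exact permutation p = 0.114). Derl3 is also expressed in plasma cells, whose 10 measured markers summed to 449 to 709 in the Brap LKO livers and 271 to 658 in the Brap F/F livers, with Jchain and Mzb1 above 0 in every liver and Tnfrsf17 not among the genes of the table. The part of plasma cells in Derl3 was not tested. Syvn1 (HRD1, the ubiquitin ligase itself) was at 2257 to 3836 in the Brap LKO livers and 2284 to 3987 in the Brap F/F livers, and shared the order of the chaperones.

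The sensors and factors start and relay the response. They had a median log2 fold change of -0.10, which became -0.02 under quantile normalization or 0.06 when livers had the same total. Relative to the median of all genes, these values were -0.09, 0.0005 and -0.08. None of the 6 passed the threshold. XBP1, ATF6, IRE1 and PERK are switched on by splicing, cleavage or phosphorylation, none of which is measured by reads per gene. Xbp1 (chr11:5520659-5525893) had normalized counts of 5795, 5648, 4532 and 5642 in the Brap LKO livers and 6324, 4541, 4874 and 7739 in the Brap F/F livers. Brap F/F replicate 4 was highest, and Brap LKO replicate 3 and Brap F/F replicate 2 were lowest and almost equal. The estimate was a log2 fold change of -0.09 ± 0.16 (SE; adjusted p = 0.809, exact permutation p = 0.686), and its sign turned under quantile normalization and under the same total per liver.

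Atf4 (chr15:80255184-80257541) had 1942, 2291, 2313 and 2118 in the Brap LKO livers and 2754, 2532, 2132 and 2356 in the Brap F/F livers. All 3 highest livers were Brap F/F livers, but Brap F/F replicate 3 lay within the Brap LKO range. Its log2 fold change was -0.17 ± 0.09 (SE; limma adjusted p = 0.4, exact permutation p = 0.114), with -0.01 under the same total per liver. ATF4 protein is raised mainly by translation, which RNA levels do not show. Atf6 (chr1:170704674-170867771) had 3163, 3392, 3246 and 4108 in the Brap LKO livers and 3817, 3815, 3607 and 4020.0 in the Brap F/F livers. Brap LKO replicate 4 was the highest of all, and the other Brap LKO livers lay below all Brap F/F livers. The log2 fold change was -0.14 ± 0.09 (SE; adjusted p = 0.466, exact permutation p = 0.2), with 0.02 under the same total per liver.

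Ern1 (chr11:106394650-106487852) was the sensor with the largest estimate, with 3078, 2481, 2313 and 2428 in the Brap LKO livers and 2203, 1822, 1876 and 2864 in the Brap F/F livers. Brap F/F replicates 1, 2 and 3 lay below all Brap LKO livers, and Brap F/F replicate 4 was the second highest of all. This gave a log2 fold change of 0.25 ± 0.15 (SE; adjusted p = 0.445, exact permutation p = 0.2). Eif2ak3 ranged from 471 to 938 in the Brap LKO livers and from 467 to 872 in the Brap F/F livers, with Brap LKO replicate 4 and Brap F/F replicate 4 apart from the rest. Ppp1r15a (GADD34, which restores translation after PERK) was the steadiest gene of this class, at 339 to 398 in the Brap LKO livers and 315 to 390.5 in the Brap F/F livers.

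The ATF4 targets had the widest spread of estimates, from -0.71 for Chac1 to 0.90 for Atf3, around a median of 0.03 that became -0.17 under quantile normalization or 0.17 when livers had the same total. None of the 7 that were tested passed the threshold. Sesn2 (chr4:132492032-132510501; sestrin 2, an inhibitor of mTORC1) had 391, 382, 339 and 477 in the Brap LKO livers and 344, 766, 563 and 428 in the Brap F/F livers. As for Herpud1, Brap F/F replicates 2 and 3 were the highest and Brap LKO replicate 4 came next. Its log2 fold change was -0.35 ± 0.22 (SE; adjusted p = 0.474, exact permutation p = 0.257). Trib3 (chr2:152337422-152344032), a pseudokinase that restrains ATF4 and AKT, had 258, 257, 142 and 227 in the Brap LKO livers and 103, 199, 211 and 228 in the Brap F/F livers. A low liver in each group, Brap LKO replicate 3 and Brap F/F replicate 1, set the spread. The estimate was a log2 fold change of 0.28 ± 0.28 (SE; adjusted p = 0.65, exact permutation p = 0.486).

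Chac1 (chr2:119351229-119354381), which degrades glutathione and is a sensitive marker of the PERK branch, had 128, 88.3, 83.0 and 68.6 in the Brap LKO livers and 127, 113, 221 and 149 in the Brap F/F livers. All Brap LKO livers but replicate 1 lay below all Brap F/F livers. The mean was 91.9 ± 25.2 (SD, n = 4) in the Brap LKO group against 152 ± 48.0 (SD, n = 4) in the Brap F/F group. The log2 fold change was -0.71 ± 0.24 (SE), with an unadjusted p of 0.016, an adjusted p of 0.213 in limma and an exact permutation p of 0.0857. Atf3 (chr1:191170296-191218039), an early stress factor that many other signals also induce, had 28.2, 41.6, 44.5 and 13.5 in the Brap LKO livers and 12.5, 10.2, 22.1 and 18.6 in the Brap F/F livers. Brap LKO replicates 1, 2 and 3 lay above the Brap F/F range, and Brap LKO replicate 4 lay within it. This gave a log2 fold change of 0.90 ± 0.40 (SE), with an unadjusted p of 0.0485, an adjusted p of 0.313 in limma and an exact permutation p of 0.114. Macrophage markers summed to 5136 to 8860.1 in the Brap LKO livers against 4869 to 6578 in the Brap F/F livers. Those of stellate cells and fibroblasts summed to 7734 to 12223 against 5091 to 8797. Between the groups both lists moved in the same direction as Atf3. In Brap LKO replicate 4, the lowest of its group for Atf3, their mean log2 deviations were 0.34 and 0.53. In Brap LKO replicate 3, the highest for Atf3, they were 0.11 and 0.57. The part of these cells in Atf3 was not tested.

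The best known effector of the response, Ddit3, did not pass the threshold either, at 87.0 to 137 in the Brap LKO livers and 96.7 to 115 in the Brap F/F livers, with a log2 fold change of -0.09 ± 0.16 (SE; limma adjusted p = 0.805). The genes of amino acid synthesis varied most of all. Asns had 41.9, 84.1, 63.7 and 94.6 in the Brap LKO livers and 101.5, 10.2, 25.2 and 187 in the Brap F/F livers, an 18.4-fold range. Both ends of it were Brap F/F livers, and the 3 highest livers were again those of the chaperones, with Brap F/F replicates 2 and 3 lowest and Brap LKO replicate 1 next. Its pooled SD within groups, 1.36 on the log2 scale, exceeded that of 99.4% of tested genes. Psat1, of the serine pathway, was at 6.80 to 47.8 in the Brap LKO livers and 10.2 to 26.2 in the Brap F/F livers. Phgdh, the first enzyme of that pathway, was left out by the filter at 0 to 4.55 in the Brap LKO livers and 0 to 4.56 in the Brap F/F livers, so at this depth a difference was not detectable.

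The C/EBP-ATF element, searched as TGATGNAA on both strands, was present for Herpud1 and for Atf3, Chac1 and Asns among the 8 ATF4 targets (37.5%), against 3.91% of all genes. These matches are shown because the genes that hold them did not move together. They are printed along the gene's strand, with the element in capitals. Those of Atf3 and Asns, like that of Hspa5, lie inside the interval the annotation gives to the gene, since their windows end at a start within it.
Herpud1 (chr8:94386312-94386329, plus strand): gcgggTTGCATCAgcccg
Atf3 (chr1:191183431-191183448, minus strand): cgcacTTGCATCAccaag
Chac1 (chr2:119351044-119351061, plus strand): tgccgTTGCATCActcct
Asns (chr6:7693220-7693237, minus strand): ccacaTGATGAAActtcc
Herpud1 was highest in Brap F/F replicate 2, where Atf3 and Asns were lowest, and Chac1 was highest in Brap F/F replicate 3.

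Further genes of the same pathways were examined in 4 lists. None of 28 genes in a list of further ER folding genes, which also holds the mitochondrial factor Grpel1, 36 genes of degradation and translocation, 24 sensors and factors and 39 ATF4 targets passed the threshold, and their median log2 fold changes were -0.11, -0.15, -0.08 and -0.07. Estimates lay below 0 for 25, 33, 19 and 25 genes of these lists (89.3%, 91.7%, 79.2% and 64.1%), beside 52.0% of all tested genes. With the same total per liver these medians turned to 0.05, 0.01, 0.08 and 0.07, of which all stayed below the median of all genes. Counted against that median, 24, 32, 18 and 25 genes lay below it. Under quantile normalization 19, 29, 16 and 19 lay below the median of all genes. These shares were not tested. In the folding list the smallest p-values belonged to Grpel1 (an exchange factor for HSP70 of mitochondria), Dnajb12 and Fkbp2, with log2 fold changes of -0.21, -0.18 and -0.20 and adjusted p-values of 0.174, 0.177 and 0.179. In the list of degradation and translocation they belonged to Vcp, the ATPase that extracts proteins from the ER membrane, Sec24d and Ube2g2, at -0.15, -0.39 and -0.28 with adjusted p-values of 0.277, 0.305 and 0.327.

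Among the further factors they were Creb3l1, Eif2ak1 and Cebpb, at 0.50, -0.16 and -0.22 with adjusted p-values of 0.294, 0.347 and 0.352. Among the further ATF4 targets they were Eif4ebp1, Stc2 and Soat2, at -0.32, 0.77 and -0.32 with adjusted p-values of 0.0662, 0.18 and 0.231. Eif4ebp1 encodes a repressor of translation. It had 808, 847, 846 and 751 in the Brap LKO livers and 998, 1047.5, 971 and 1053 in the Brap F/F livers, and these groups did not overlap. Groups did not overlap for 4 of the 28 genes of the folding list, 1 of the 36 of degradation and translocation, 0 of the 24 factors and 3 of the 39 ATF4 targets, beside 9.86% of all tested genes. The related responses of other compartments had no called gene either. Cytosolic heat shock genes (15 tested) had a median of -0.04, with Hspb8 at -0.33 (adjusted p = 0.0845), Cryab at 0.65 (adjusted p = 0.135) and Chordc1 at -0.11 (adjusted p = 0.572) closest, and the groups of Hspb8 and Cryab did not overlap. Mitochondrial stress genes (9 tested) had a median of -0.12, with Dnaja3, Htra2 and Lonp1 closest at adjusted p-values of 0.121, 0.36 and 0.481, and the groups of Dnaja3 did not overlap. Estimates lay below 0 for 9 of the 15 heat shock and 9 of the 9 mitochondrial genes, beside 52.0% of all tested genes. Under quantile normalization 8 and 6 did. With the same total per liver the medians of these lists were 0.12 and 0.03, beside 0.15 for all genes.

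The order of the livers in the chaperones was also found in genes of the machinery that brings proteins into the ER. Brap LKO replicate 4 and Brap F/F replicates 1 and 4 were the 3 highest livers for 24 of 36 genes of degradation and translocation (66.7%) and for 13 of 28 further folding genes (46.4%). They were so for 12 of 39 further ATF4 targets (30.8%), 6 of 24 further sensors and factors (25.0%), 1 of 15 cytosolic heat shock genes and 1 of 9 mitochondrial genes, beside 8.21% of all tested genes. Sec61a1, the pore through which nascent proteins enter the ER, is an example chosen after its values were seen, with 5462.5, 5709.5, 4869 and 7758 in the Brap LKO livers and 8295, 5261, 5249.7 and 9912 in the Brap F/F livers. Across the 36 genes the mean deviation was -0.19, -0.08, -0.19 and 0.17 in Brap LKO replicates 1 to 4 and 0.20, -0.08, -0.16 and 0.33 in Brap F/F replicates 1 to 4, whereas over the cytosolic heat shock genes it stayed between -0.07 and 0.10.

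**Figure D5:**
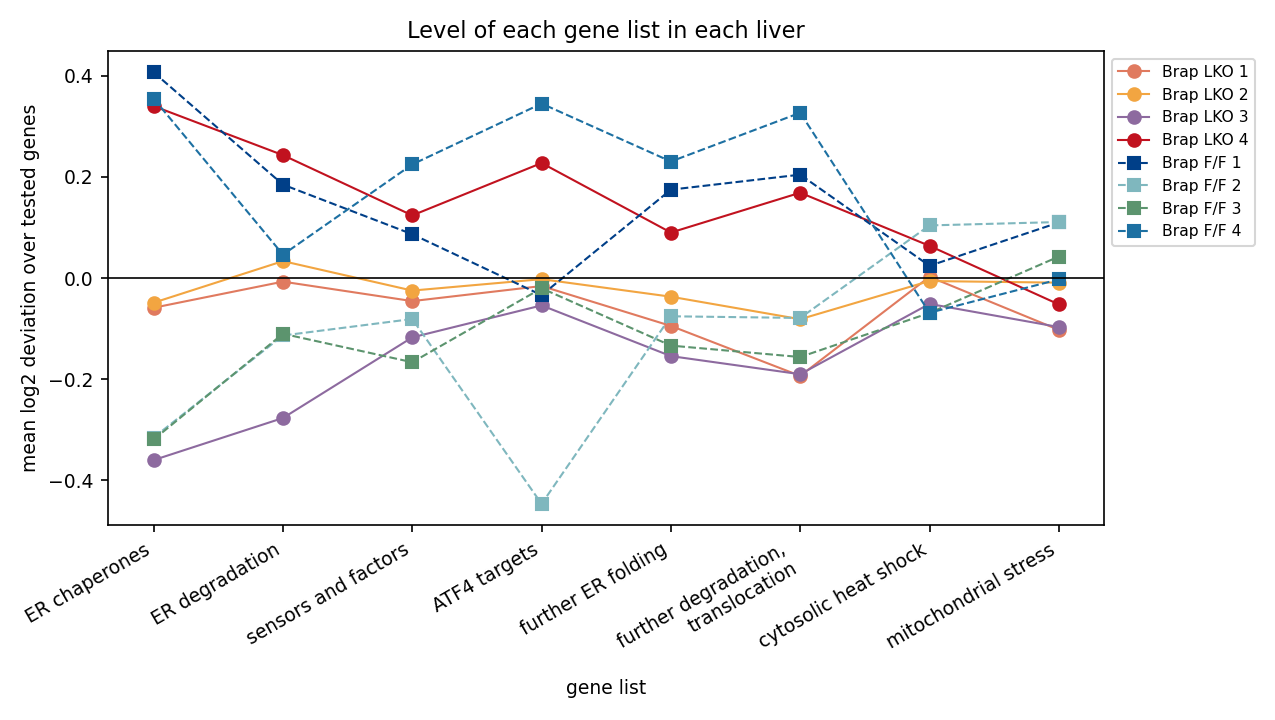
Mean deviation of log2(normalized count + 1) from each gene's own mean (vertical) in the 8 livers for 4 classes of the 34 genes and 4 further lists (horizontal); circles are Brap LKO and squares Brap F/F livers, and lines only join the points of 1 liver. For the ER chaperones Brap LKO 4, Brap F/F 1 and Brap F/F 4 lie between 0.34 and 0.41 and Brap LKO 3, Brap F/F 2 and Brap F/F 3 between -0.36 and -0.32, while for cytosolic heat shock all livers lie between -0.07 and 0.10.

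Some counts carry a limit of annotation. In GENCODE, 10 of the 34 genes share exon bases with another gene, and the use of strand in counting is not given in the sources used here. The share exceeded 4% of the exon bases for Hsp90b1, Eif2ak3, Ddit3 and Manf, with 10.3%, 8.05%, 6.13% and 4.71% as the largest overlap of each. Calr and Phgdh each have 1 annotated pseudogene of their name.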

How the data were processed

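Each of the 8 mice (4 per genotype) gave 1 liver library. Per the labels and the paper's methods, the authors used a NuGEN kit (Universal Plus mRNA), read 50 bases from a single end, and mapped with STAR 2.6.0c (mm10). The read counter, annotation release and use of strand are not given in the sources used here. The deposited values (a signal per gene) are read counts that the authors divided by a DESeq2 size factor per liver. All values (100%) were whole multiples, within 0.01, of the smallest value above 0 in their liver, so reads were recovered by division. A second deposited table holds the authors' own comparison (mean, log2 fold change, SE, p-value, adjusted p-value and fold change) and was not used.

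Total reads on genes were 26280884 to 33313914 per liver. A count of 0 allows up to 3 reads, and this covers counting error only. Differences were tested with limma 3.58.1 in R 4.3.3 (lmFit, eBayes with trend) on log2(normalized count + 1) for 15352 genes with a mean of at least 5, with Benjamini-Hochberg adjustment over all of them and a threshold of 0.05. A fold change on this scale understates that of low genes. Exact permutation tests were two-sided over the 70 arrangements of 4 livers against 4, with a smallest p of 0.0286. Alternatives included edgeR 4.0.16 and DESeq2 1.42.0 run on those reads, and sva 3.50.0 was added after the data were seen. The limma, edgeR and DESeq2 tests were also run on simulated counts, drawn independently for each gene and liver. The permutation test and sva were not. Positions and exon lengths came from GENCODE vM21 and promoter windows from RefSeq (30 of the 34 genes matched). Proteins were not analysed here.

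The genes, lists and tests were chosen with earlier results of these data known. Given in full were, in each class, the 3 genes with the highest count per kilobase of exon, the 2 with the largest absolute log2 fold change, and any gene past the threshold or without overlap of the groups. Of the further lists, genes past the threshold or else the 3 with the smallest p were named. Manf, Sel1l, Asns and Sec61a1 were added after their values were seen, as were the 3 livers whose order is described.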

Additional observations from a re-analysis of the deposited data

Results flagged for a closer look

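Of the 68 groups of 4 livers examined (34 genes in 2 groups), 9 held a liver whose gap to its nearest neighbor was more than Dixon's critical share of the group's range at the 95% level, where chance would mark about 3.4. Brap LKO replicate 4 stood above the rest of its group for Dnajb9 (3324, nearest 1586), Manf (2598, nearest 1292), Eif2ak3 (938, nearest 481) and Ddit3 (137, nearest 92.6). Brap LKO replicate 3 stood below its group for Pdia6 (5134, nearest 7075), Sdf2l1 (377, nearest 758), Derl3 (45.5, nearest 155.5) and Xbp1 (4532, nearest 5642). In the Brap F/F group the only such value was that of Derl3 in replicate 1 (130.0, nearest 47.3). The genes are not independent of one another, and the cause was not tested.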

How the results depend on the processing

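No gene of the 34 passed under any of the 22 other settings except Sel1l, the 1 gene called lower with 1 surrogate variable (adjusted p = 0.0472), and elsewhere the smallest adjusted p was 0.106 to 0.336. Counts over all genes moved more. Genes called higher numbered 283 at an adjusted p under 0.1, 62 with quantile normalization, 459 with the same total per liver, 448 in DESeq2 and 490 with the surrogate variable, against 102. Genes called lower numbered 64 at an adjusted p under 0.1, 9 with a minimum mean of 20, 159 in DESeq2 and 245 with the surrogate variable, against 16. Leaving out 1 liver gave 11 (Brap LKO replicate 1) to 178 (Brap F/F replicate 4) higher and 4 (Brap F/F replicate 2) to 54 (Brap F/F replicate 4) lower. The cause was not tested.

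With the same total per liver the medians were -0.0011 for ER degradation and 0.062 for sensors and factors, beside 0.15 for all genes. Of 33 genes, 17 turned sign under some setting and 16 under none. Log2 fold changes that turned under the same total were Hsp90b1 0.15, Pdia3 0.16, Calr 0.14, Canx 0.13, Dnajb11 0.035, Dnajc3 0.083, Creld2 0.014, Edem1 0.0018, Derl1 0.0091, Atf6 0.017, Xbp1 0.064, Eif2ak3 0.059 and Ddit3 0.063. Those under quantile normalization were Hsp90b1 0.15, Pdia3 0.11, Calr 0.14, Canx 0.091, Dnajc3 0.027, Xbp1 0.022 and Psat1 -0.17, and under TMM Hsp90b1 0.0044 and Pdia3 0.013. The animal series as a covariate gave Pdia6 -0.007, Eif2ak3 0.13 and Ddit3 0.022, and the surrogate variable Pdia4 -0.076, Pdia6 -0.052, Asns -0.0021 and Psat1 -0.21. Asns was -0.18 in edgeR and -0.19 in DESeq2.

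Leaving out 1 liver turned the sign within these ranges: Hsp90b1 -0.11 to 0.13, Pdia3 -0.094 to 0.13, Pdia4 -0.10 to 0.17, Pdia6 -0.061 to 0.15, Calr -0.12 to 0.10, Canx -0.067 to 0.010, Dnajb11 -0.26 to 0.043, Dnajc3 -0.16 to 0.028, Creld2 -0.39 to 0.10, Xbp1 -0.21 to 0.051, Eif2ak3 -0.34 to 0.079, Asns -0.21 to 1.15 and Psat1 -0.47 to 0.42.

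Not every pair of same-numbered livers deviated together (r of -0.129, 0.00336, 0.196 and 0.292). These values cannot show whether the livers were paired. With the replicate block 80 genes were called higher and 15 lower, none of them among the 34 (smallest adjusted p 0.234). With 4 livers a group, the printed intervals give the range of differences that these data allow, and those of Asns, Psat1 and Derl3 are the widest.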

Other observations

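The aminoacyl-tRNA synthetases, which ATF4 raises in the integrated stress response, shared their highest livers with the ER chaperones, as did Asns and Psat1 but not Chac1, Trib3, Sesn2, Atf3 or Ddit3. Of 11 tested, 9 had Brap LKO replicate 4 and Brap F/F replicates 1 and 4 as the 3 highest livers, and none passed the threshold in limma (log2 fold changes from -0.23 to 0.03). Iars had 1154, 1315, 1282 and 1723 in the Brap LKO livers and 1582.5, 1223, 1299 and 1560.1 in the Brap F/F livers.

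Vldlr and Ddit4, stress-induced genes that other signals also raise, were highest in the same livers as Herpud1 and Sesn2. Vldlr, the very low density lipoprotein receptor, had 37.3, 28.0, 19.2 and 17.7 in the Brap LKO livers and 17.1, 182, 185 and 20.6 in the Brap F/F livers. Ddit4 (REDD1) had 156, 159, 343 and 183 in the Brap LKO livers and 184, 1012, 429 and 201 in the Brap F/F livers. In both, Brap F/F replicates 2 and 3 were the highest of the 8 livers. These genes were chosen after their values were seen, and no difference between livers was tested.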
